A study of Mus musculus with 9 samples.

Results

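GABA-A receptor subunit transcripts were examined in the cerebellum of mice that carry a human spinocerebellar ataxia type 3 gene. The 7 genes described are Gabra2, Gabra3, Gabra4, Gabra5, Gabrb1, Gabrb2 and Gabrd, matched by Ensembl identifier among 37816 genes in the count table. They were selected on earlier differential expression results of these libraries, with no contrast named, so their values against 15Q are given as a description. All 7 passed the filter on low counts that left 19353 genes for testing. GENCODE vM21 lists 12 further GABA-A subunit genes, which serve as the comparison.

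All animals were YAC transgenics whose yeast artificial chromosome holds human ATXN3 with 15 or 84 CAG repeats, on a C57BL/6 background. Animals without the transgene were not analysed here, so 15Q is a transgenic control. By the paper's account, the 15Q mice were a gift of another laboratory and the 84Q mice came from The Jackson Laboratory. Repeat length and mouse line therefore cannot be told apart. PBS was given to the 15Q and 84Q mice, whose labels read untreated, and insulin-like growth factor 1 at 50 mg/kg to the 84Q+IGF-1 mice. Injections were intraperitoneal and weekly from 9 to 18 months of age, and cerebellar tissue was taken at 18 months. Each of the 3 groups had 3 libraries, and nothing in the labels says how the animals were related or what sex they were. The p-values therefore measure the spread between these libraries.

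GABA-A receptors are chloride channels of 5 subunits, most often alpha and beta subunits with a gamma or a delta subunit. The alpha subunit shapes the response to GABA and to benzodiazepines, the beta subunit contributes to the GABA binding site, and a gamma subunit is tied to synaptic clustering. In cerebellar granule cells, receptors with alpha6 and delta subunits lie outside synapses and carry a steady inhibitory current, and beta2 is a common beta subunit there.

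Library totals ran from 17482654 counts (84Q replicate 3) to 58269196 (15Q replicate 3). The tissue label held: all 10 granule cell markers and all 10 Purkinje cell markers exceeded 3 counts in every library, and the summed granule cell level was 5770 to 6670 CPM, the count scaled to a common library total. Markers of other tissue were uneven. Summed choroid plexus markers reached 510 and 495 CPM in 15Q replicates 1 and 3 and 1044 CPM in 84Q replicate 2, against 26.4 to 67 CPM in the other 6 libraries. Summed intestinal epithelium markers were 26.6 to 43 CPM in 15Q and 4.69 to 6.5 CPM in the other 6 libraries, so that this difference and the group cannot be told apart. Xist, the transcript of the inactive X chromosome, was at 718 to 948 CPM in 4 libraries (both larger 15Q libraries, 1 of 84Q and 1 of 84Q+IGF-1) and at most 1.15 CPM in the other 5.

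Promoter sequence is shown for Gabrb2 and Gabra2, the members with adjusted p under 0.1 and lower in 84Q than in 15Q. RefSeq windows on GRCm38.p6 were matched for 6 of the 7 members, and Gabrd had no entry. Each run gives the 250 bases before a start, 5′ to 3′ on the gene's strand, and capitals mark a motif match on either strand. For Gabrb2 the window is chr11:42420190-42420439 (plus strand), before the first of 3 RefSeq starts and inside the first intron of the GENCODE transcript Gabrb2-201. For Gabra2 it is chr5:71095850-71096099 (minus strand).
Gabrb2: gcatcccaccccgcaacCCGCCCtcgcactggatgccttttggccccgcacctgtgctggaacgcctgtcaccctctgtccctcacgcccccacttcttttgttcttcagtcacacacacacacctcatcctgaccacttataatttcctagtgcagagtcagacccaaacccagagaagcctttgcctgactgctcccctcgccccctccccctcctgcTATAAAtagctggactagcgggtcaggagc
Gabra2: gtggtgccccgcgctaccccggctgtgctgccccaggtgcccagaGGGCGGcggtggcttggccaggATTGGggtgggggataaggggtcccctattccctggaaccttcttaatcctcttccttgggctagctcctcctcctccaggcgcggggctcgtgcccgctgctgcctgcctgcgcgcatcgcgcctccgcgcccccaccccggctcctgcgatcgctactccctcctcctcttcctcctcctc
The letters searched on both strands were TATAAA for the TATA box, CCAAT for the CCAAT box, GGGCGG for the GC box, CACGTG for the E-box and TGACGTCA for the cAMP response element, none of which contains another. The Gabrb2 window held TATAAA starting 30 bases before the start, as did 12.4% of 32851 mouse windows at any place, and GGGCGG on the reverse strand, as did 32.7%. The windows before the other Gabrb2 starts held neither motif and were 54% and 36.8% G and C. The Gabra2 window held GGGCGG on the forward strand and CCAAT on the reverse strand, the latter found in 33.8% of windows. CACGTG, present in 6.02% of windows, and TGACGTCA, present in 1.55%, were in none of the members' windows. The Gabra2 window was richer in G and C, at 70% against 58.8% for Gabrb2 and a median of 52.4% over all windows. These matches describe letters and not binding.

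A coding stretch shows how far reads of Gabrb2 can be told apart from those of Gabrb1. It was centred on the longest run that both share and covers bases 1395 to 1484 of the Gabrb2-205 coding sequence, within 1 exon at chr11:42626747-42626836 (plus strand, GRCm38). The Gabrb1 bases lie at chr5:72136665-72136754 (plus strand), and capitals mark those that differ from Gabrb2.
Gabrb2: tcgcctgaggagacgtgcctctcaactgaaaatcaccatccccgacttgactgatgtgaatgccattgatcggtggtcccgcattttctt
Gabrb1: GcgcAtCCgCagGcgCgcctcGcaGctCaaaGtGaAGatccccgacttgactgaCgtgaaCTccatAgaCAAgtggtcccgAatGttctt
Gabrb1 differed at 23 of these 90 bases. Over the aligned coding sequences, Gabrb2 was 73.4% identical to Gabrb1 with a longest shared run of 17 bases, and Gabra2 was 74.1% identical to Gabra3 with a longest shared run of 20 bases. Only 0.298% of the 31-base words of Gabrb2 transcripts occurred in transcripts of any other gene, and the share was 1.28% for Gabra2 and 4.21% for Gabra5. The Gabra5 words were shared with 1 gene, and 148 of its exon bases overlap the antisense gene Gm9962. Gabra4 and Gabrb1 overlap head to head by 46 exon bases on opposite strands. The kit kept strand, but the strand setting of the counting is not given in the sources used here.

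Levels of different genes were compared as TPM, in which counts are divided by exon length and scaled to a common total. Over the 9 libraries Gabra6, the alpha subunit typical of granule cells, was the most abundant subunit at 676 ± 51 TPM (SD, n = 9). Gabrd, the delta subunit, was at 234 ± 20.7 TPM and lay below Gabra6 in every library. Gabrb2 was at 102 ± 26.5 TPM, below Gabrd in every library, and ranged from 67.8 to 147 TPM. Gabrb1 (18.3 ± 2.71 TPM), Gabra3 (14.8 ± 1.38 TPM) and Gabra4 (14.1 ± 0.568 TPM) formed a lower tier in which each range overlapped the next. Gabra2 lay below them in all libraries at 9.24 ± 1.63 TPM, and Gabra5 was near the bottom at 1.1 ± 0.555 TPM, a level that overlapped Gabrr2 above it. The 7 members together made 361 to 429 of the 1490 to 1690 TPM of all 19 subunit genes.

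**Figure D1:**
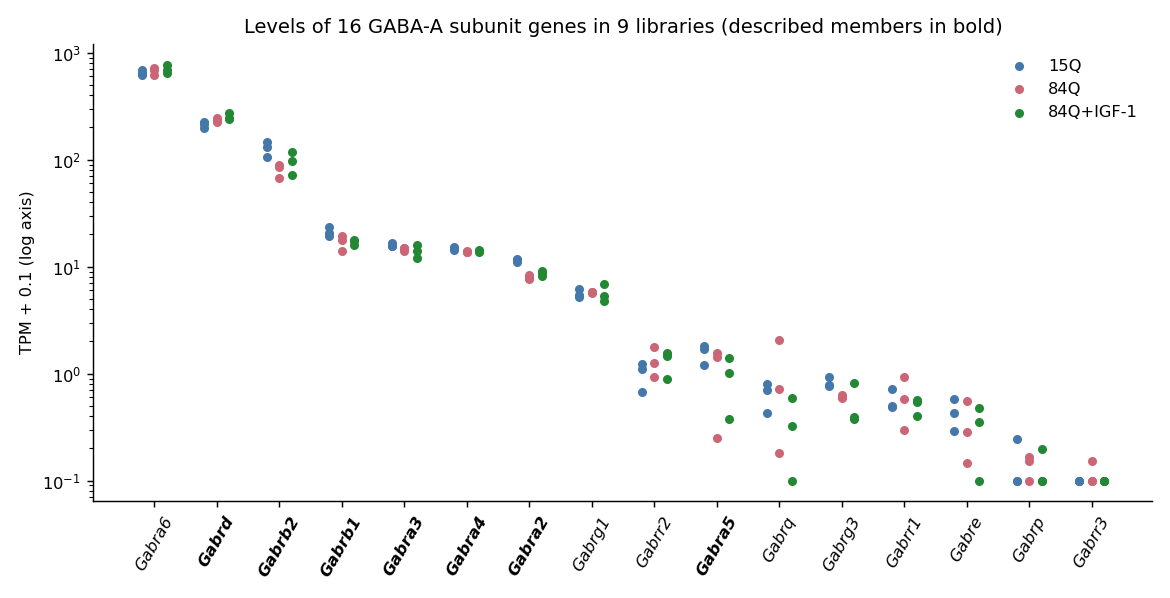
TPM plus 0.1 on a log axis for 16 GABA-A subunit genes, ordered by mean, with 1 point per library coloured by group and the 7 described genes in bold. Gabra6 and Gabrd sit apart at the top, and the Gabrb2 points spread from 67.8 to 147 TPM.

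The comparison of 84Q with 15Q asks which subunit transcripts differ between the lines with and without the expanded repeat. Among the alpha subunits, Gabra2 was lower in 84Q, while Gabra3, Gabra4 and Gabra5 had smaller or noisier differences. Of the beta subunits Gabrb2 was 1.52-fold lower, and Gabrd was 1.14-fold higher. With a call set at adjusted p under 0.1 and a change of at least 1.5-fold, 1 of 7 members (Gabrb2) was called, against 2.14% of all genes tested. At adjusted p under 0.1 alone, 2 of 7 (Gabra2 and Gabrb2) passed, against 4.8% of genes. The groups did not overlap for 4 of 7 members, namely Gabra2, Gabra4, Gabrb2 and Gabrd, against 25.4% of genes. The median log2 fold change of the members was -0.26, and that of all genes was -0.0019. As the members were chosen with earlier results known, nothing is read from these counts or from those of 84Q+IGF-1 against 15Q.

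Gabra2 encodes the alpha2 subunit, which is more typical of forebrain than of granule cells. Its levels were 20.6, 21.8 and 21.6 CPM in 15Q replicates 1 to 3, 16, 15.2 and 14.8 CPM in 84Q, and 16.8, 17 and 15.2 CPM in 84Q+IGF-1. The 15Q libraries were tightly grouped and lay above all 6 expanded-repeat libraries, whose 2 groups overlapped. The log2 fold change was -0.48 ± 0.08 (SE) in 84Q and -0.39 ± 0.08 in 84Q+IGF-1, both against 15Q, and thus short of the 1.5-fold limit, which is 0.585 on the log2 scale. In bulk tissue, fewer cells that carry a transcript and less transcript per cell cannot be told apart.

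Gabra3, Gabra4 and Gabra5 also encode alpha subunits, of which alpha4 can join the delta subunit outside synapses. Gabra3 ran from 14.8 to 16.2 CPM in 15Q, 14.1 to 14.8 CPM in 84Q and 12 to 15.5 CPM in 84Q+IGF-1, with log2 fold changes against 15Q of -0.07 ± 0.10 and -0.17 ± 0.10. The ranges overlapped in both contrasts. Gabra4 was nearly flat, at 22.1 ± 0.5 CPM (SD, n = 3) for 15Q, 21.2 ± 0.232 CPM for 84Q and 21.3 ± 0.849 CPM for 84Q+IGF-1. Its 84Q libraries all lay below the 15Q libraries, but by a log2 fold change of only -0.07 ± 0.07. Gabra5 was barely counted, with 32, 33 and 72 counts in 15Q, 32, 23 and 2 counts in 84Q, and 5, 18 and 28 counts in 84Q+IGF-1. A library with 2 counts is under the limit of 3 that a count of 0 allows, and the log2 fold changes against 15Q (-0.46 ± 0.53 and -0.77 ± 0.53) had errors too wide for a difference to be detectable at this depth. With the library total as a covariate the first of these was 0.15.

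Gabrb2 encodes the beta2 subunit, which was above Gabrb1 in TPM in every library. It stood at 168, 205 and 227 CPM in 15Q replicates 1 to 3. In 84Q it stood at 145, 139 and 111 CPM. In 84Q+IGF-1 it stood at 116, 188 and 153 CPM. All 84Q libraries were below all 15Q libraries, whereas 84Q+IGF-1 spanned the gap, with replicate 2 above the lowest 15Q library and replicate 1 near the lowest 84Q library. The log2 fold change was -0.60 ± 0.16 in 84Q, just past the limit of 0.585, and -0.39 ± 0.16 in 84Q+IGF-1, both against 15Q.

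**Figure D2:**
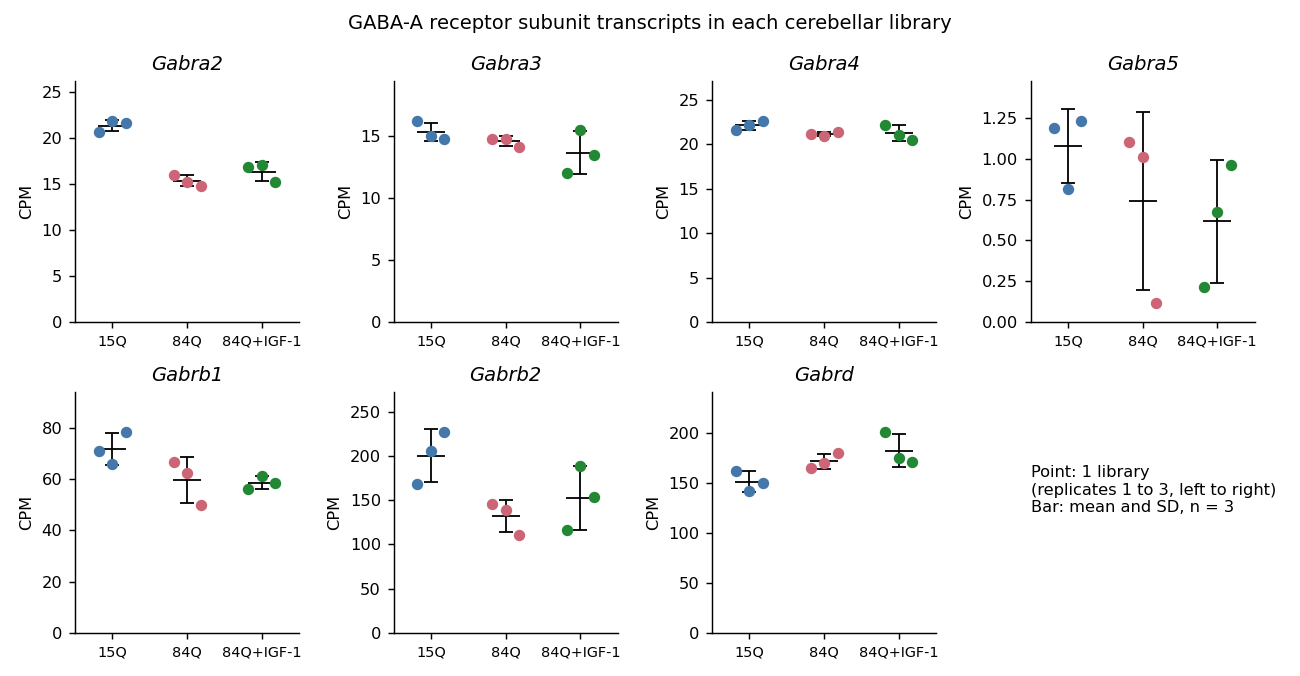
CPM of the 7 members in each library, with a panel per gene, a point per library and bars for the mean and SD of each group (n = 3), on axes that start at 0. The 15Q points of Gabra2 (20.6 to 21.8 CPM) lie above all others, and the 84Q points of Gabrb2 (111 to 145 CPM) lie below the 15Q points (168 to 227 CPM).

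The Gabrb2 level moved with library total and with Xist. The fits on library total, on thinned counts and without choroid plexus libraries were added after the data were seen. The 2 largest libraries, 15Q replicates 3 and 2, had the 2 highest Gabrb2 levels, and the smallest library, 84Q replicate 3, had the lowest. With the library total as a covariate, Gabrb2 in 84Q differed from 15Q by -0.20 ± 0.17 on the log2 scale and no member passed adjusted p under 0.1. With all libraries thinned to 17482654 counts it was -0.64 ± 0.16 and the call was kept. Library total and group cannot be told apart in full, since the 2 largest libraries are both 15Q.

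In each group the highest Gabrb2 level was in a library with high Xist. Among Xist-high libraries the level was 205 to 227 CPM in 15Q, 145 CPM in 84Q and 188 CPM in 84Q+IGF-1. Among Xist-low libraries it was 168 CPM in 15Q, 111 to 139 CPM in 84Q and 116 to 153 CPM in 84Q+IGF-1. All 84Q levels lay below all 15Q levels, so a split by Xist could not change their order. With Xist as a covariate the log2 fold change was -0.46 ± 0.11, under the 1.5-fold limit, so that the call was lost. It was also lost without 15Q replicate 2, 15Q replicate 3, 84Q replicate 2 or 84Q replicate 3, each left out alone, with log2 fold changes from -0.71 to -0.49 over all 9 omissions. Without the 3 libraries of highest choroid plexus sums, which leaves 1 library in 15Q, it was -0.67 ± 0.23 and not called. The part that intestinal epithelium RNA plays in the 15Q libraries was not tested.

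**Figure D3:**
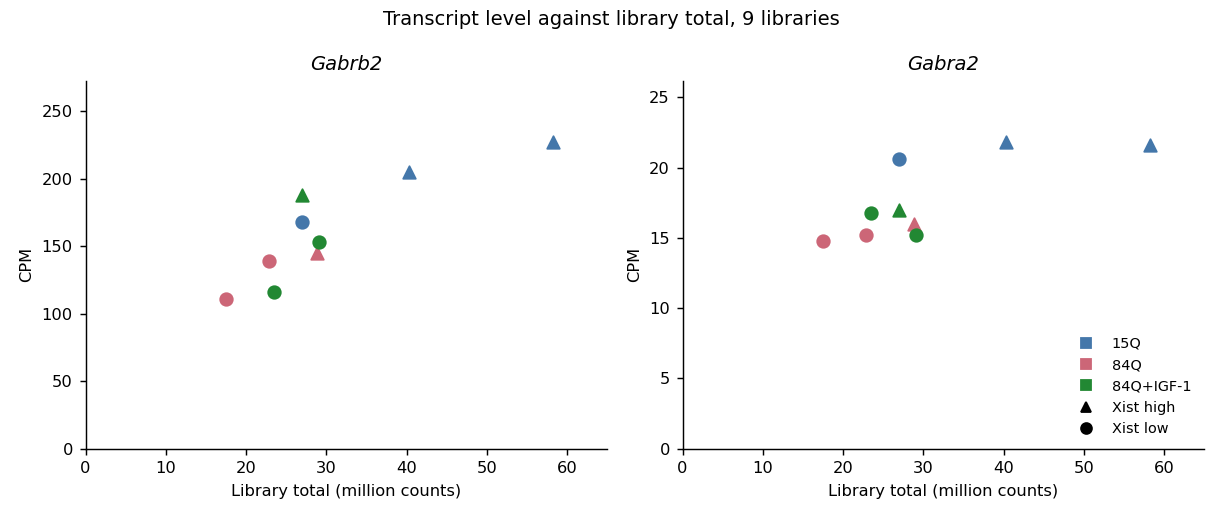
CPM of Gabrb2 (left) and Gabra2 (right) against library total, with 1 point per library, colour for the group and triangles for libraries with high Xist. Both genes are highest in the 2 largest libraries, Gabrb2 at 205 and 227 CPM and Gabra2 at 21.8 and 21.6 CPM.

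Gabra2 too was highest in the 2 largest libraries and lowest in the smallest. The 15Q library of 26925001 counts had a Gabra2 level of 20.6 CPM, and the 84Q+IGF-1 library of 26914560 counts had 17 CPM. For Gabrb2 the same libraries ran the other way, at 168 and 188 CPM. The log2 fold change in 84Q against 15Q ran from -0.56 to -0.43 over 19 alternative settings and was under adjusted p of 0.1 in 17 of them. The exceptions were the library total as a covariate and the omission of the choroid plexus libraries.

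Gabrb1 encodes beta1, a subunit also found in glia. It measured 70.9, 65.9 and 78.4 CPM in 15Q, 66.8, 62.5 and 49.7 CPM in 84Q and 56.1, 61.2 and 58.6 CPM in 84Q+IGF-1. The 84Q+IGF-1 libraries lay below all 15Q libraries, and 84Q replicate 1 lay within the 15Q range. The log2 fold change was -0.26 ± 0.10 in 84Q, or -0.15 without 84Q replicate 3, and -0.29 ± 0.10 in 84Q+IGF-1. With the library total as a covariate, these were -0.06 ± 0.11 and -0.14 ± 0.10.

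Gabrd encodes the delta subunit, which granule cells use in receptors outside synapses. Its levels were 162, 142 and 150 CPM in 15Q, 165, 170 and 180 CPM in 84Q, and 201, 175 and 171 CPM in 84Q+IGF-1. All 6 libraries with the expanded repeat lay above all 15Q libraries, although 84Q replicate 1 exceeded 15Q replicate 1 by little. The log2 fold change was 0.18 ± 0.07 for 84Q and 0.27 ± 0.07 for 84Q+IGF-1, both against 15Q, and 0.06 ± 0.09 and 0.17 ± 0.08 with the library total as a covariate. Gabra6, its usual partner in granule cells, had 0.09 ± 0.09 and 0.13 ± 0.09 and did not pass the test.

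The comparison of 84Q+IGF-1 with 15Q uses the same 15Q libraries. None of the 7 members was called by edgeR or by DESeq2, against 2.25% of genes by edgeR, while 4 had an unadjusted p under 0.05, against 17.7% of genes. At adjusted p under 0.1 alone, 2 of 7 passed, Gabra2 lower and Gabrd higher, against 3.67% of genes. The groups did not overlap for 3 of 7 members (Gabra2, Gabrb1 and Gabrd), against 24.7% of genes. The median log2 fold change was -0.29 over the members and -0.0051 over all genes. No member passed without 15Q replicate 2 or without 15Q replicate 3, and Gabra2 alone passed without 84Q+IGF-1 replicate 1 or 2. Gabrb2 was at -0.57 without 84Q+IGF-1 replicate 2 and -0.23 without 84Q+IGF-1 replicate 1.

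The comparison of 84Q+IGF-1 with 84Q asks what differed between 84Q mice given IGF-1 and 84Q mice given PBS. It shares the 84Q libraries with the first comparison. No member passed edgeR's quasi-likelihood test, as called with the fold limit (0% of genes) or by adjusted p alone (0% of genes), and none had an unadjusted p under 0.05 or passed in DESeq2. Across all genes, 905 had an unadjusted p under 0.05 and DESeq2 called 6. The groups overlapped for all 7 members, against 8.48% of genes without overlap. Gabrb2 had the largest value among the well-counted members, at 0.21 ± 0.16 (edgeR, adjusted p = 0.969), with a 95% interval from -0.14 to 0.56. It ran from 0.03 without 84Q+IGF-1 replicate 2 to 0.37 without 84Q+IGF-1 replicate 1. Gabra2 had 0.09 ± 0.08, with an interval from -0.09 to 0.27, and Gabrd had 0.08 ± 0.07, with an interval from -0.08 to 0.24. These intervals do not show that the levels are alike.

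**Figure D4:**
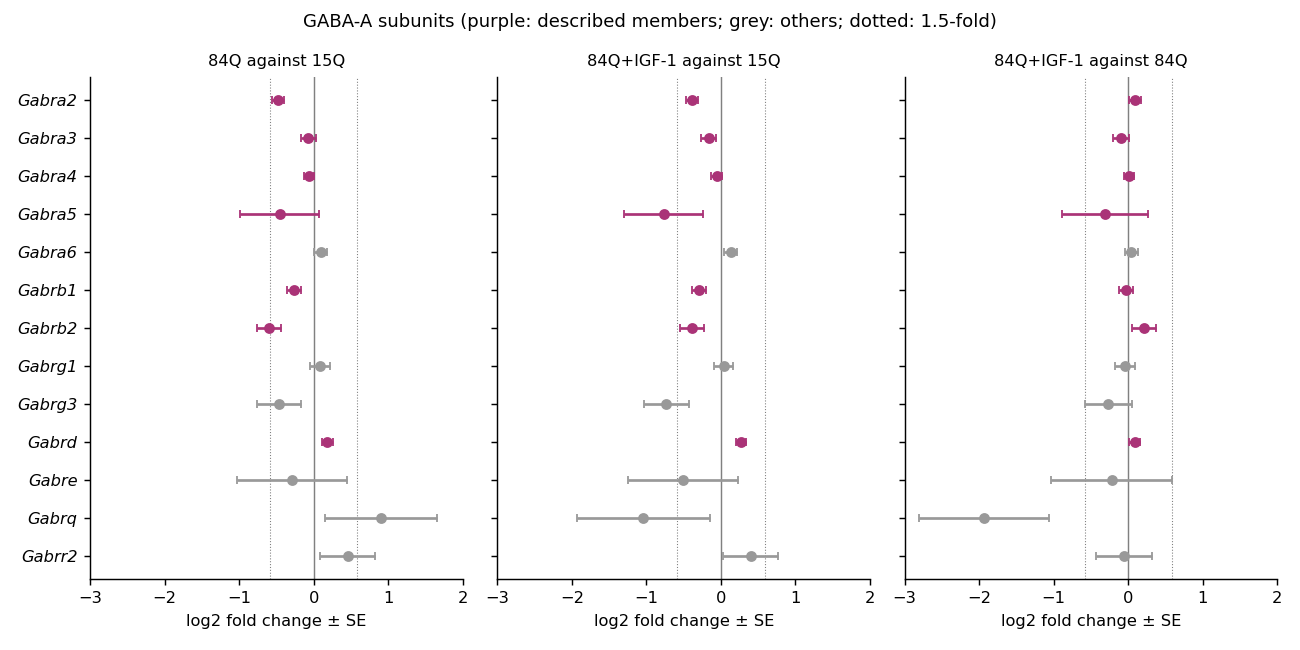
Log2 fold changes with SE for 13 of the GABA-A subunit genes tested, in 3 panels for the 3 comparisons, with the members in purple, the others in grey and dotted lines at 1.5-fold. Gabrb2 at -0.60 is past the dotted line in 84Q against 15Q, and the widest bars belong to thinly counted genes such as Gabra5, Gabrq and Gabre.

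Of the 12 other subunit genes, 9 were tested. None passed edgeR's adjusted p of 0.1 or DESeq2 in any contrast, and the numbers with an unadjusted p under 0.05 were 0, 1 and 1. Gabrq, a theta subunit gene, had 78 counts in 84Q replicate 1 and at most 32 in any other library. Its log2 fold change of -1.94 ± 0.87 in 84Q+IGF-1 against 84Q (edgeR, adjusted p = 0.969) included a library at 0 counts, which makes that value depend on the prior count.

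The subunit genes sit in clusters, and the direct neighbours of Gabrb2 and Gabra2 were read beside them. On chromosome 11, Gabrb2 (42419757 to 42629028, plus strand) lies beside Gabra6, which had a log2 fold change of 0.09 ± 0.09 in 84Q against 15Q. On chromosome 5, Gabra2 (70957597 to 71095849, minus strand) lies between Gabrg1, at 0.08 ± 0.13, and Gabra4, at -0.07 ± 0.07. Gabrb1 follows Gabra4 head to head. The differences between neighbours were not tested.

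The genes whose log2 CPM followed Gabrb2 most closely over the 9 libraries were Camsap2 (Pearson r = 0.989), Vcan (0.988), Zfp971 (0.986), Vcpip1 (0.985) and Gm38020 (0.984), among 19352 compared. Camsap2 binds microtubule minus ends and Vcan encodes the matrix protein versican. For Gabra2 they were Ms4a4c (0.985), Enpep (0.977), Mgam (0.974), Lgals4 (0.974) and Cdhr5 (0.971). Of these, Ms4a4c and Cdhr5 were thinly counted, at mean levels of 0.254 and 0.29 CPM. Mgam, Lgals4 and Cdhr5 are genes of intestinal epithelium, whose marker sum was higher in all 15Q libraries. These points share group, library total and preparation, so the values describe likeness only.

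Other genes of GABA signalling were taken from lists of receptor assembly and clustering, GABA synthesis and transport, GABA-B receptors and the chloride gradient, which with the 12 subunits made 54 genes. Of the 51 tested in 84Q against 15Q, none passed edgeR's adjusted p of 0.1, 7 had an unadjusted p under 0.05 (19.4% of all genes did) and DESeq2 passed 3 (6.3% of genes given an adjusted p). The median log2 fold change over the 51 was 0.0043. Gabarapl2, a relative of the receptor trafficking protein GABARAP, was nearest at 0.32 ± 0.09 (edgeR, adjusted p = 0.101), and Slc32a1, the vesicular GABA transporter, followed at 0.33 ± 0.10 (edgeR, adjusted p = 0.113). For 84Q+IGF-1 against 15Q none passed, 9 had an unadjusted p under 0.05 (17.7% of all genes) and DESeq2 passed 1 (5.24% of genes given an adjusted p), and the nearest was Slc6a13, a GABA transporter of meninges and choroid plexus, at -0.78 ± 0.26 (edgeR, adjusted p = 0.149). For 84Q+IGF-1 against 84Q none passed, 3 had an unadjusted p under 0.05 (4.68% of all genes) and DESeq2 passed 0.

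The most abundant genes of these lists did not pass the test in any contrast. Gad1, which makes GABA, was at 440 ± 37.8 CPM in 15Q, 457 ± 38.5 CPM in 84Q and 464 ± 12.6 CPM in 84Q+IGF-1 (SD, n = 3). Gabbr1, a GABA-B receptor subunit, was at 860 ± 22.6, 826 ± 15.6 and 842 ± 30.6 CPM in the same order. Slc12a5, the chloride exporter KCC2, was at 651 ± 38.4, 691 ± 41 and 731 ± 16.8 CPM, and Nlgn2, which encodes the inhibitory synapse protein neuroligin 2, was at 319 ± 21.8, 320 ± 26.1 and 320 ± 23.4 CPM. Of the 5 glycine receptor genes, 4 were tested and none passed in any contrast, with Glrb at 176 ± 1.06, 182 ± 8.2 and 177 ± 5.66 CPM.

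Markers of the cell types of the cerebellum were set beside the members. No granule cell marker of 10 passed adjusted p under 0.1 in 84Q against 15Q, and 2 Purkinje cell markers of 10 passed, Pcp2 at 0.34 ± 0.10 and Slc1a6 at 0.34 ± 0.08. Of 8 molecular layer interneuron markers, 6 had negative and 2 positive log2 fold changes. Among them, Pvalb passed as higher at 0.25 ± 0.07 and Tfap2b as lower at -0.25 ± 0.07. The microglia marker Csf1r was higher at 0.37 ± 0.07. In 84Q+IGF-1 against 15Q, Pvalb was again higher at 0.31 ± 0.07. The oligodendrocyte genes Mal and Ugt8a were lower there, at -0.36 ± 0.09 and -0.48 ± 0.11. Of 9 astrocyte markers, Aqp4 was lower at -0.28 ± 0.07, while 6 of the 9 changes were negative and 3 positive. Summed astrocyte markers overlapped, at 4500 to 5140 CPM in 15Q and 4320 to 5190 CPM in 84Q+IGF-1. The summed interneuron levels overlapped between groups, at 690 to 762 CPM in 15Q and 666 to 753 CPM in 84Q. Summed microglia markers did not overlap between these groups, at 143 to 169 CPM in 15Q and 171 to 210 CPM in 84Q. Summed oligodendrocyte markers were 4100 to 4410 CPM in 15Q and lower, at 3080 to 4040 CPM, in 84Q+IGF-1. The part of cell makeup in the members' values was not tested.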

How the data were processed

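RNA was measured by paired-end, strand-specific RNA-seq in 9 cerebellar libraries (3 each of 15Q, 84Q and 84Q+IGF-1). The authors deposited whole-number counts per Ensembl gene, not normalized. The submitters' processing notes name bcl2fastq 2.20, Trimmomatic 0.36, HISAT2 2.2.0, featureCounts and mm10. The strand setting and the annotation release are not given in the sources used here. Gene names, positions and exon lengths came from GENCODE vM21 (GRCm38), which held 37681 of 37816 genes, 36940 of them with the same versioned identifier.

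CPM used totals scaled by TMM factors, and TPM used union exon lengths. One edgeR 4.0.16 quasi-likelihood fit over all 9 libraries (filterByExpr, TMM, R 4.3.3) tested 19353 genes, with Benjamini-Hochberg adjustment over them. The SE is the size of the log2 fold change divided by the root of its F statistic. A call needed adjusted p under 0.1 and a change of at least 1.5-fold. DESeq2 1.42.0 and the other alternatives are given under the dependence on processing. Totals set the precision: 3 counts equal 0.0515 CPM in the largest library and 0.172 CPM in the smallest, and such limits cover counting error only. Chi-square values per gene between replicates were 9.58 to 16.1, above sampling noise, so each library counted as 1 sample.

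The members and gene lists were chosen with earlier results of these data known. Named are all 7 members, other subunits, list and marker genes under adjusted p of 0.1, up to 3 abundant genes a list, the 5 genes most like Gabrb2 and Gabra2, and cluster neighbours. Gabarapl2, Slc32a1, Slc6a13 and the Gabrq counts were singled out after seeing their values. The 6 intestinal markers that passed are given only within the sum of all 9 markers of that list. Some genes that this rule names are not reported here. Alignments used Biopython.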

Additional observations from a re-analysis of the deposited data

How the results depend on the processing

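Of 399 recomputed log2 fold changes of members, 378 stayed within 1 error of the reported value or, for 84Q+IGF-1 against 84Q, kept their sign and side of the threshold, 14 against 15Q moved further and 7 changed sign. Of the 14, Gabra5 in 84Q with the library total as a covariate also changed sign. The library total as a covariate, thinning and the omission of the choroid plexus libraries were chosen after seeing the data. The last leaves 15Q with 1 library, assumed to vary like the other groups.

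The 1 member called in 84Q against 15Q became 0 with robust shrinkage, the replicate block, Xist or the library total as a covariate, adjusted p under 0.05, or without the choroid plexus libraries, and ran from 0 to 1 when each library was left out. The 2 members under adjusted p of 0.1 became 1 with robust shrinkage, the replicate block or a threshold of 0.05, became 0 with the library total or without the choroid plexus libraries, became 3 with no filter, and ran from 1 to 3 by omission. In 84Q+IGF-1 against 15Q, 2 became 4 with no filter, 3 in a fit of those 2 groups alone, 1 with the replicate block, Xist, a threshold of 0.05 or thinning, and 0 with the library total or without the choroid plexus libraries, with 0 to 3 by omission. Fewer libraries enter the omissions, and the cause of the other changes was not tested.

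The 0 other GABA genes in 84Q against 15Q became 3 by DESeq2, 1 with DESeq2 size factors, robust shrinkage, the replicate block or thinning, and 6 with no filter, with 0 to 2 by omission. In 84Q+IGF-1 against 15Q the 0 became 1 by DESeq2 or in a fit of those 2 groups alone and 6 with no filter, with 0 to 1 by omission. In 84Q+IGF-1 against 84Q the 0 became 2 with no filter. The 7 changes of sign arose in that comparison. By omission of single libraries, Gabra4 ran from -0.0239 (without 84Q+IGF-1 replicate 1) to 0.0328, Gabra5 from -0.782 to 0.0783 (without 84Q replicate 1), with 0.0612 without 84Q+IGF-1 replicate 1, and Gabrb1 from -0.141 to 0.0614 (without 84Q replicate 1), with 0.00534 without 84Q replicate 2 and 0.000923 without 84Q+IGF-1 replicate 1. Gabrb1 was 0.00588 without the choroid plexus libraries.

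Over all genes, 928 under adjusted p of 0.1 in 84Q against 15Q became 1503 by DESeq2, 2457 with no filter, 354 with the replicate block, 432 with Xist and 94 with the library total. In 84Q+IGF-1 against 15Q, 711 became 1251, 2364, 325, 433 and 152 in that order. In 84Q+IGF-1 against 84Q, 0 became 265 with no filter. The replicate numbers did not pair the samples, since same-numbered libraries correlated at -0.309 to 0.0788 in their deviations and 1 of 9 correlated best with its own number.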
